A study of Homo sapiens with 6 samples.

Results

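The genes of the MYC, MAX and MXD network were described in SUM159, a mesenchymal cell line established from a human breast cancer of the triple-negative type. The members were the 10 genes named MYC, MYCN, MYCL, MAX, MXD1, MXD3, MXD4, MXI1, MNT and MGA, and all 10 were found by symbol among the 18398 genes of the deposited count table. RNA sequencing had been done on 3 libraries of stable cells overexpressing POGK from the pLVX vector, called POGK cells, and on 3 libraries of cells with pLVX and no added POGK, called control cells. POGK, a gene related to pogo transposons, encodes a protein with the KRAB repressor domain, and the stated purpose was to find genes it regulates. Both groups were grown in the same medium with serum, insulin and hydrocortisone, and the labels name neither the promoter that drives POGK nor whether the stable cells were 1 clone. They also do not say that replicates were separate cultures, so the p-values here reflect the spread among these libraries alone, which may be technical.

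The network is built around MAX, a small protein with a basic helix-loop-helix leucine zipper that pairs with every other member. MYC, MYCN and MYCL pair with MAX and activate genes at DNA sites called E-boxes, among them many genes of growth and ribosome production. MXD1, MXI1, MXD3, MXD4 and MNT pair with MAX at the same kind of site and recruit the SIN3 and histone deacetylase corepressor, and MGA joins MAX to a noncanonical Polycomb complex. In breast cancer MYC is known as a frequently amplified oncogene, with high activity in the triple-negative type.

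The E-box is the DNA letter code the network reads, so the windows before the members' own start sites were searched for it. RefSeq promoter sequences (GRCh38.p14, the build of the files) were matched for 9 of the 10 members, all except MYC, with 14 start sites in all, and the 250 bases before each start were read. The motif CACGTG, which reads the same on both strands, was present in 2 of the 14 windows, against 6.34% of all 35116 promoter windows. These 2 windows lie before the starts of MXD4 and MNT. The related motif CACGCG was searched on both strands and did not overlap CACGTG in these windows. It was present in 1 of the 14 windows, before a start of MGA, against 9.72% of all windows. These 3 windows are printed because they hold the letters of the network's own binding site, with the motif in capitals (in MGA as its reverse complement). The MXD4 window is chr4:2262110-2262359 on the minus strand, with its motif starting 238 bases before the start of the gene. The MNT window is chr17:2401061-2401310 on the minus strand, with its motif starting 193 bases before the start. The MGA window is chr15:41660155-41660404 on the plus strand, with its motif starting 21 bases before the start.
MXD4: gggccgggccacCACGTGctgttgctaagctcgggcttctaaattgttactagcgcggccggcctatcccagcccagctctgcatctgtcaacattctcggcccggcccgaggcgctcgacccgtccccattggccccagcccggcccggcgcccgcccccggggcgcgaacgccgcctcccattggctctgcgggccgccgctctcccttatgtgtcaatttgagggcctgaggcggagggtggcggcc
MNT: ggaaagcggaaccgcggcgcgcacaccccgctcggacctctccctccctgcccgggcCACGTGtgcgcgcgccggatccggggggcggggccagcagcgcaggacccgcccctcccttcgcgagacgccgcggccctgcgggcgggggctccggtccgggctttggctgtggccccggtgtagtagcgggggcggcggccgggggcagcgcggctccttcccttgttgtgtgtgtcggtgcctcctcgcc
MGA: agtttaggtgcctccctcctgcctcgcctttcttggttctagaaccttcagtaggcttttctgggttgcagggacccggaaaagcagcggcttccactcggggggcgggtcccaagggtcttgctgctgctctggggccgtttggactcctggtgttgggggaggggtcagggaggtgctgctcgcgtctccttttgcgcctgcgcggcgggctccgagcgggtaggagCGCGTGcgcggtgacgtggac
A match describes letters in these windows and is not evidence of binding. The 3 genes that hold one did not share a direction, as given below: MXD4 was lower in POGK cells, and MNT and MGA did not pass the test.

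The libraries held 27645789 to 33689230 counts. POGK itself had 26565, 28258 and 23128 counts in POGK cells, against 1555, 2423 and 1987 in control cells, an 11.1-fold higher level (log2 fold change 3.48, SE 0.10). Defining mesenchymal genes were high in both groups, with VIM at 3344.5 and 5959.7 CPM (the count scaled to the size of the library, with TMM factors) in POGK and control cells, while the luminal gene ESR1 had 13 and 17 counts and the epithelial gene EPCAM 23 and 19 counts over the 3 libraries of each group. Of the markers of other cells, the leukocyte gene PTPRC had 1.66 and 0.53 CPM and the endothelial gene PECAM1 3.97 and 5.18 CPM. CDH1, PGR and CDH5 were not found among the 18398 genes of the deposited count table, so they had no values. PTPRC was thus higher and PECAM1 and VIM lower in POGK cells (edgeR adjusted p 0.00148, 0.0433 and 2.26e-04). The other markers chosen for this line, FN1, CD44 and EGFR, were lower too (edgeR adjusted p 8.08e-06, 0.0208 and 9.97e-04). FN1 stood at 962.4 and 3055.4 CPM in POGK and control cells. The part of these marker differences in the results was not tested. The POGK libraries lay close together, with a median coefficient of variation over all tested genes of 4.44%, against 13.5% between control libraries. The same held for the members, at 3.50% and 13.8%. The fit pools both spreads, so its p-values assume that the groups vary equally.

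In POGK cells 6 of the 10 network genes were lower, 1 was higher and 3 did not pass, at an edgeR quasi-likelihood adjusted p below 0.05. The 6 were MYC, MAX and all 4 genes of the MXD family, and the gene that was higher was MYCN, at a very low level. Over all 15889 genes tested, 33.3% were lower, 32.7% were higher and 66.0% were called in either direction, so being called is common here. The median log2 fold change of the members was -0.45, against 0.00 over all genes tested. The libraries of the groups were fully separated in 7 of the 10 members and in 73.7% of all genes, a fall of at least 2-fold was called for 2 of the 10, against 12.7% of all genes, and a rise of at least 2-fold for 0 of the 10, against 9.58%. The share lower stood above that of all genes, while the share called, the share not overlapping and the share 2-fold lower were near it. All 10 members passed the filter on low counts. Directions are relative to the TMM scale: with library size alone, the median of all genes tested shifts to 0.19 and that of the members to -0.26.

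**Figure D1:**
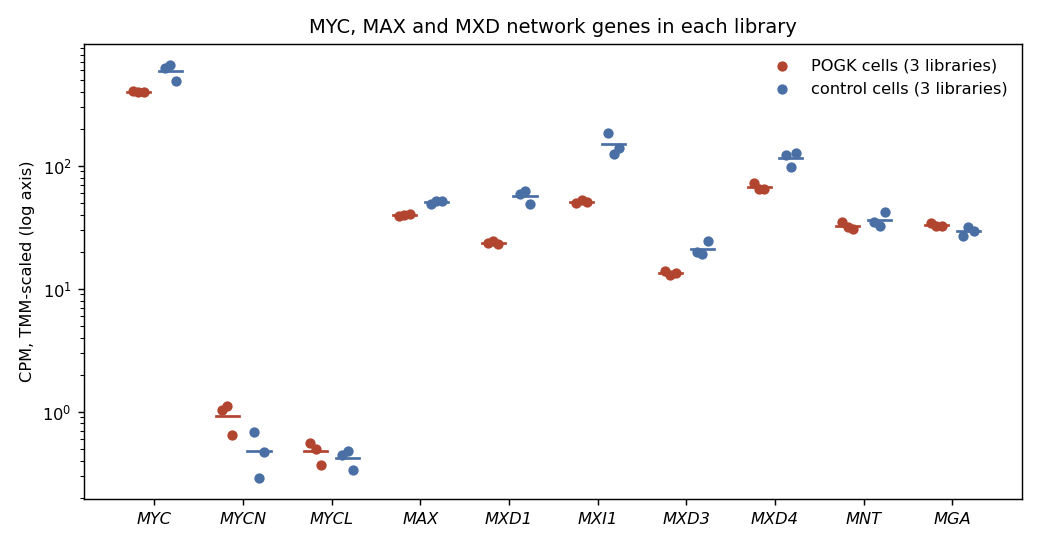
CPM of the 10 network genes in each library on a log axis, with 3 POGK libraries (left of each pair) and 3 control libraries, and a line at each group mean. MYC lies near 400 CPM in POGK cells and between 488.7 and 662.1 CPM in control cells, while MYCN and MYCL lie near or below 1 CPM in both groups.

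MYC (ENSG00000136997; hg38 chromosome 8, 127735434 to 127742951, plus strand) was the most abundant member per length, as given below, and was lower in POGK cells. It had 408.0, 394.1 and 399.6 CPM in the POGK libraries, against 624.3, 662.1 and 488.7 CPM in the control libraries. The POGK values lay close together, the control values were uneven with replicate 3 lowest, and the groups did not overlap. The level was 1.48-fold lower, with a log2 fold change of -0.56 (SE 0.11) at an edgeR adjusted p of 0.00186. In bulk RNA, fewer cells with a transcript and less of it per cell cannot be told apart. The change was -0.47 without control replicate 2 and -0.69 without control replicate 3, and it passed in both.

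The paralogs MYCN and MYCL, which take the place of MYC in neural and some lung tumours, were hardly expressed. MYCN (ENSG00000134323; chromosome 2, 15940550 to 15947007, plus strand) had 37, 40 and 19 counts in POGK cells, against 17, 9 and 14 in control cells. POGK replicate 3 lay apart from the other POGK libraries, and on the CPM scale the groups overlapped, with 0.641 CPM there and 0.684 CPM in control replicate 1. The log2 fold change was 0.99 (SE 0.35) at an edgeR adjusted p of 0.0326. This call was lost without POGK replicate 1 (0.0946), POGK replicate 2 (0.11), control replicate 2 (0.0982) or control replicate 3 (0.0879), and with DESeq2 (0.0537). MYCL (ENSG00000116990; chromosome 1, 39895428 to 39902256, minus strand) had 20, 18 and 11 counts in POGK cells, against 11, 15 and 10 in control cells, and missed the threshold, with 0.587 as its edgeR adjusted p. Against 40699 and 50760 counts of MYC over the 3 libraries of each group, the paralogs together were a trace in both.

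MAX, the shared partner (ENSG00000125952; chromosome 14, 65006174 to 65102695, minus strand), was modestly lower. It had 39.1, 39.7 and 40.1 CPM in POGK cells, against 48.5, 51.5 and 51.3 CPM in control cells. The groups did not overlap, and both were tight, at a coefficient of variation of 1.32% in POGK and 3.36% in control cells. The log2 fold change was -0.35 (SE 0.07) at an edgeR adjusted p of 0.00185. With library size alone it was -0.15 and did not pass, at 0.128. MAX shares exon sequence with FNTB on the opposite strand, whose level was lower too, at 6.15 and 9.82 CPM in POGK and control cells, and since the sources used here do not give the strand setting of the counting, reads of genes that overlap on opposite strands cannot be told apart.

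The 4 genes of the MXD family, the antagonists of MYC, were all lower in POGK cells. MXI1 (ENSG00000119950; chromosome 10, 110207605 to 110287365, plus strand), the member also known as a gene raised by low oxygen, had 49.7, 52.5 and 50.3 CPM in POGK cells, against 185.5, 123.8 and 139.7 CPM in control cells. No POGK library came near any control library, and control replicate 1 was the highest of all. It was 2.94-fold lower (log2 fold change -1.56, SE 0.14, edgeR adjusted p 2.38e-05). This was the largest change among the 10 members, and 5.82% of all genes tested had a lower log2 fold change.

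MXD1 (ENSG00000059728; chromosome 2, 69897688 to 69942945, plus strand), known for its rise when cells leave the cycle and differentiate, had 23.6, 24.2 and 23.2 CPM in POGK cells, against 59.0, 61.6 and 49.1 CPM in control cells. All 3 POGK libraries lay well below all 3 control libraries, and the groups did not overlap. The level was 2.39-fold lower (log2 fold change -1.26, SE 0.10, edgeR adjusted p 1.43e-05). It shares exon sequence with SNRNP27 on the same strand, which had 17.2 and 19.7 CPM in POGK and control cells and did not pass.

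MXD4 (ENSG00000123933; chromosome 4, 2247432 to 2262109, minus strand) and MXD3 (ENSG00000213347; chromosome 5, 177301461 to 177312757, minus strand) moved less. MXD4 had 72.2, 64.6 and 64.3 CPM in POGK cells, against 121.0, 98.2 and 126.0 CPM in control cells. The groups did not overlap, and the log2 fold change was -0.78 (SE 0.10, edgeR adjusted p 1.90e-04). MXD3, known as the family member that is expressed in S phase of the cell cycle, had 13.9, 12.8 and 13.5 CPM in POGK cells, against 19.7, 19.1 and 24.6 CPM in control cells. It did not overlap either, at a log2 fold change of -0.66 (SE 0.12, edgeR adjusted p 0.00106). Reads of MXD3 may be mixed with those of PRELID1 on the opposite strand, which went the other way with 182.5 and 115.5 CPM in POGK and control cells, and of RAB24 on the same strand, at 2.89 and 4.40 CPM.

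MNT, the antagonist that both growing and resting cells express, and MGA, the largest member, did not pass the test. MNT (ENSG00000070444; chromosome 17, 2384073 to 2401104, minus strand) had 34.5, 31.6 and 30.3 CPM in POGK cells, against 34.8, 32.2 and 41.6 CPM in control cells. The groups overlapped, with control replicate 3 above the rest, and the log2 fold change was -0.17 (SE 0.11, edgeR adjusted p 0.189). Without control replicate 2 it passed, at -0.25 (0.0428), and with library size as the only scaling it was 0.02. MGA (ENSG00000174197; chromosome 15, 41621134 to 41773081, plus strand) had 34.0, 32.5 and 32.5 CPM in POGK cells, against 26.8, 31.9 and 29.4 CPM in control cells. The groups just failed to overlap, and the log2 fold change was 0.17 (SE 0.09, edgeR adjusted p 0.124). It passed without control replicate 2 (0.23, 0.021) and with library size alone (0.36, 0.0174).

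**Figure D2:**
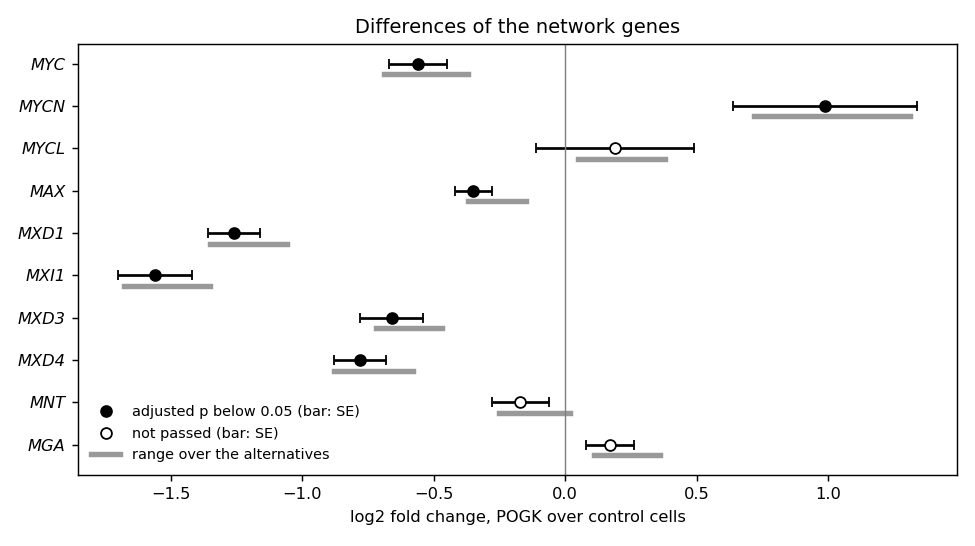
Log2 fold change of POGK over control cells for each network gene, with bars of 1 SE, filled where the edgeR adjusted p was below 0.05, and a grey line for the range over the alternative settings. MYC, MAX, MXD1, MXI1, MXD3 and MXD4 stay below 0 over their whole range, and the range of MNT crosses 0.

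The authors' deposited table gave the same order of changes among the members. It listed a log2 fold change of -1.56 for MXI1, -1.26 for MXD1, -0.78 for MXD4, -0.65 for MXD3, -0.56 for MYC and -0.34 for MAX. In the authors' deposited table MYCN was at 0.99 with an adjusted p of 0.0201, and MYCL, MNT and MGA had adjusted p-values of 0.657, 0.323 and 0.16.

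Levels were compared between members only per length, as RPKM (CPM per kilobase of exon) over the union of annotated exons. In POGK cells the order was MYC at 65.6 ± 1.15, MXD4 at 9.75 ± 0.652, MXI1 at 8.60 ± 0.247, MAX at 6.34 ± 0.0837, MXD1 at 3.72 ± 0.0776 and MNT at 3.69 ± 0.244 RPKM (SD, n = 3). MXD3 at 2.82 ± 0.117, MGA at 1.64 ± 0.0429, MYCN at 0.336 ± 0.0908 and MYCL at 0.0958 ± 0.0193 RPKM followed (SD, n = 3). MXD1 and MNT overlapped between libraries and could not be ordered, and no other neighbours overlapped. In control cells the order was MYC at 96.9 ± 14.9, MXI1 at 25.3 ± 5.43, MXD4 at 16.7 ± 2.16, MXD1 at 8.91 ± 1.04, MAX at 8.06 ± 0.271, MXD3 at 4.45 ± 0.631 and MNT at 4.16 ± 0.56 RPKM (SD, n = 3). MGA at 1.46 ± 0.128, MYCN at 0.175 ± 0.0721 and MYCL at 0.0845 ± 0.0149 RPKM came last (SD, n = 3). There MXD1 overlapped MAX, and MXD3 overlapped MNT. MXI1 thus stood above MXD4 in every control library and below it in every POGK library. With the longest transcript as the length, MXD1 came after MNT and MXD3 in POGK cells and after MAX in control cells.

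Ratios within a library do not depend on how libraries are scaled to each other. The level of MYC per kilobase over the summed level of MXD1, MXD3, MXD4 and MXI1 was 2.61, 2.60 and 2.69 in POGK cells, against 1.64, 2.21 and 1.46 in control cells. Relative to the MXD family, MYC RNA was therefore higher in every POGK library than in any control library, by 1.49-fold between the means, although MYC itself was lower. Without MXI1 in the sum the ratio was 3.89, 4.06 and 4.13 in POGK cells, against 3.29, 3.87 and 2.56 in control cells, so that control replicate 2 came close to the lowest POGK library, and with the longest transcript as the length these groups overlapped. The ratio of MYC to MAX was 10.7, 10.2 and 10.2 in POGK cells, against 13.2, 13.2 and 9.76 in control cells, and overlapped. The MXD family over MAX stood at 3.93 ± 0.149 in POGK cells and 6.90 ± 1.07 in control cells (SD, n = 3 each), with no overlap. These ratios were formed from members with known values and carry no test.

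The make-up of the repressor side differed as well. Of the summed level per kilobase of the MXD family and MNT, MXI1 made up 28.5%, 31.3% and 30.6% in POGK cells, against 47.3%, 39.8% and 39.6% in control cells. MNT, whose level differed least among these 5 genes, made up 13.4%, 12.8% and 12.5% in POGK cells, against 6.01%, 7.02% and 8.01% in control cells. MXD4 made up 34.1 ± 1.32% in POGK cells and 28.1 ± 2.28% in control cells (SD, n = 3 each), and was the largest part in POGK cells, where MXI1 was the largest in control cells. MXD1 overlapped between the groups, at 12.6% to 13.4% in POGK cells and at 14.0%, 18.4% and a share within the POGK range in control cells.

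**Figure D3:**
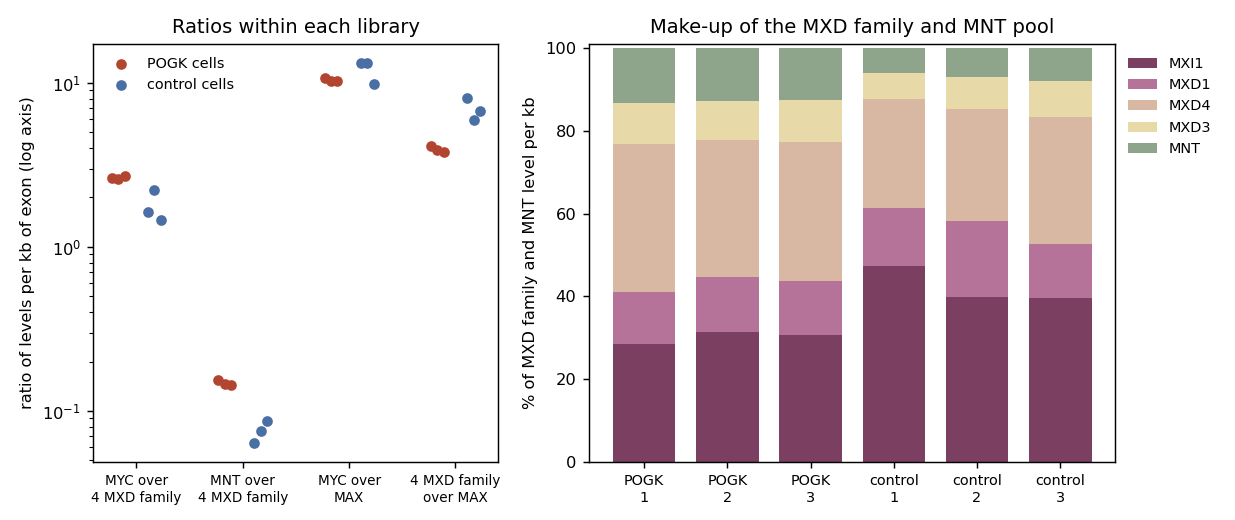
Left, ratios of levels per kilobase of exon within each of 3 POGK and 3 control libraries on a log axis. Right, stacked shares in percent of the summed level of MXI1, MXD1, MXD4, MXD3 and MNT in each library, where the MXI1 part is 28.5% to 31.3% in POGK cells and 39.6% to 47.3% in control cells.

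The genes with the pattern most like that of a member over the 6 libraries were found among 9253 protein-coding genes of at least 10 CPM, by the root mean square difference of centred log2 CPM. Nearest to MYC were SUSD6, C15orf39, PHLDA1, WTAP (a subunit of the RNA adenosine methyltransferase) and RNF19B (a ubiquitin ligase), at differences of 0.0431 to 0.0531. Nearest to MXI1, the member with the largest change, were BNIP3 (a mitophagy receptor), SOX4 (a transcription factor), RRAS (a small GTPase), BEX3 and MYADM, at 0.0415 to 0.0562. Other members were not among the nearest: MAX was the member closest to MYC at 0.179, with 951 genes closer, and MXD1 the one closest to MXI1 at 0.243, with 426 genes closer.

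The MLX branch runs in parallel to MAX: MLX pairs with MXD1, MXD4 and MNT and with the glucose-sensing factors MLXIP (MondoA) and MLXIPL (ChREBP). Of its 5 listed genes, 4 were lower in POGK cells, none was higher and 1 missed the threshold. The share lower was 80.0%, against 33.3% of all genes tested. Their median log2 fold change was -1.46. This list and those that follow were chosen with earlier results of these data known, and the part of that choice in their shares was not tested. MLX was slightly lower, at 67.6 ± 0.702 CPM in POGK cells and 77.3 ± 5.55 CPM in control cells (edgeR adjusted p 0.0397), and MLXIP was at 79.8 ± 0.267 and 78.8 ± 4.38 CPM and did not pass (0.829). MLXIPL fell to 9.19 ± 0.65 CPM in POGK cells, against 25.3 ± 6.17 CPM in control cells. Their known target genes TXNIP, an inhibitor of glucose uptake, and ARRDC4 were 9.11-fold and 2.95-fold lower. The number lower was 3 without POGK replicate 1, POGK replicate 2, POGK replicate 3 or control replicate 1. It was also 3 with no filter, with the replicate block and with DESeq2. With library size alone 3 of the 5 were lower and 1 higher.

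Among 18 coactivators that bind MYC, 12 were higher and 2 lower in POGK cells, with a median log2 fold change of 0.35. The shares were 66.7% higher and 11.1% lower, against 32.7% and 33.3% of all genes tested. RUVBL1 and RUVBL2, paired ATPases of the TIP60 and INO80 complexes, had log2 fold changes of 1.57 and 0.51, ACTL6A, an actin-like subunit of the same complexes, 0.97, and RTF1, a PAF1 complex factor of elongation, 0.60. The 2 lower genes were the acetyltransferase KAT2A (-0.17) and ZBTB17 (-0.30), the MIZ1 protein through which MYC represses genes, both named after their values were seen. The number higher was 8 without control replicate 3, 9 without POGK replicate 1 and 14 with library size alone. The number lower was 1 without POGK replicate 1 or control replicate 3 and 0 without POGK replicate 2 or POGK replicate 3. It was also 0 with library size alone, and 1 with DESeq2, with no filter and with the replicate block. The SIN3 corepressor, the machine the MXD proteins recruit, was mixed: 8 of 20 genes were higher and 5 lower, with a median of 0.07, and the 65.0% called was near the 66.0% of all genes tested. RBBP4 and RBBP7, histone chaperones, had log2 fold changes of 0.66 and 0.61, and BRMS1 and BRMS1L, scaffold subunits, 0.96 and 0.86. The lower genes, named after their values were seen, were SIN3B (-0.47), ING1 (-0.52), ING2 (-0.74), SINHCAF (-0.34) and KDM5A (-0.18), and with library size alone 3 genes were lower.

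Of 14 partners of MGA in the noncanonical Polycomb complex PRC1.6, 7 were higher and 5 lower, with a median log2 fold change of 0.22. The 35.7% lower was near the 33.3% of all genes tested, while the share higher stood above the 32.7% of all genes. WDR5, HDAC1 and HDAC2 are also in the lists above. L3MBTL2, a methyl-lysine reader of the complex, rose to 25.4 ± 0.298 CPM in POGK cells, against 8.64 ± 2.47 CPM in control cells, and TFDP1, an E2F partner, to 288.1 ± 8.10 against 123.9 ± 25.4 CPM (SD, n = 3 each). RYBP, a subunit that binds the RING proteins, fell to 55.2 ± 0.568 CPM in POGK cells, against 145.8 ± 27.1 CPM in control cells, and RNF2, the ubiquitin ligase subunit, was 1.79-fold lower. The other lower genes, named after their values were seen, were TFDP2 (-0.65), RING1 (-0.22) and YAF2 (-0.26). The number lower was 3 without POGK replicate 1, POGK replicate 2 or POGK replicate 3, with the replicate block and with library size alone.

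Proteins that act on MYC after transcription were measured as RNA only. Of 18 genes of MYC protein turnover, 9 were higher and 6 lower, with a median log2 fold change of 0.20. The share lower equalled the 33.3% of all genes tested, while the share higher stood above the 32.7% of all genes. The share called in either direction was also above the 66.0% of all genes. The ubiquitin ligase genes TRIM32 and FBXO32 were 2.13-fold and 2.00-fold lower, and the deubiquitinase gene USP7 was 1.51-fold higher. The number lower was 3 without POGK replicate 2 and with library size alone. Of 10 genes whose proteins bind MYC mRNA, 6 were higher and 2 lower, with a median of 0.82. Here the share higher was above the 32.7% of all genes tested, and the share lower was below the 33.3%. DHX9, an RNA helicase, rose to 328.1 ± 1.22 CPM in POGK cells, against 109.1 ± 26.6 CPM in control cells (SD, n = 3 each), and IGF2BP3, ELAVL1 (HuR) and HNRNPD (AUF1) rose 3.29-fold, 1.73-fold and 1.94-fold. IGF2BP2, of the same family as IGF2BP3, was among the 2 lower genes (-0.28) and was named after its values were seen, and 1 gene was lower without POGK replicate 3 and with library size alone.

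The textbook target genes were counted beside the factors. Both lists of them were chosen with earlier results of these data known. Of 32 genes known to be raised by MYC, 23 were higher in POGK cells, where MYC RNA was lower, 3 were lower and 6 missed the threshold. The shares were 71.9% higher and 9.38% lower, against 32.7% and 33.3% of all genes tested. Their median log2 fold change was 0.88. The number higher was 20 without control replicate 3 and 25 without control replicate 1 or control replicate 2. Some of these genes had uneven control libraries, with replicate 2 highest. TFRC, named after its values were seen, had 161.0, 374.1 and 192.5 CPM in control cells, against 781.6, 781.1 and 774.7 CPM in POGK cells. The coefficient of variation in control cells was 47.4% for TFRC and 9.54% for HSPE1. Of the genes with the smallest adjusted p, HSPE1, a mitochondrial chaperonin, rose to 71.0 ± 1.33 CPM in POGK cells, against 29.7 ± 2.83 CPM in control cells (SD, n = 3 each). CCND2, the gene of cyclin D2, fell to 0.0988 ± 0.0423 CPM, against 4.39 ± 0.901 CPM, and EIF4A1, a translation helicase, to 6.74 ± 0.462 against 19.7 ± 2.70 CPM. In GENCODE 44, HSPE1 shares exon sequence with the read-through gene HSPE1-MOB4, EIF4A1 with SENP3-EIF4A1, and CCND2 with another annotated gene on the same strand, so their counts are uncertain where the counting could split such reads. The other lower gene was NPM1 (-0.31), named after its values were seen. These genes are also known targets of other regulators of growth and the cell cycle, whose part was not tested.

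Of 13 genes known to be lowered by MYC, 12 were tested, of which 10 were lower in POGK cells and 2 higher, and the median log2 fold change was -1.31. The shares were 83.3% lower and 16.7% higher, against 33.3% and 32.7% of all genes tested. With library size alone 7 were lower. The part of other regulators of these genes was not tested. NDRG1, which also responds to low oxygen, had 150.7, 157.9 and 162.8 CPM in POGK cells, against 2586.0, 1518.9 and 1830.1 CPM in control cells. The groups were far apart, and control replicate 1 was highest, as it was for MXI1. The cyclin-dependent kinase inhibitor genes CDKN1B and CDKN1C were 3.73-fold and 5.54-fold lower, and PDGFRB, a growth factor receptor, was 2.50-fold lower. The 2 higher genes were GAS1 (0.92) and CCND1 (0.52), named after their values were seen.

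RNAs from either side of MYC on its chromosome did not share 1 direction. PVT1, the long noncoding RNA next to MYC, had 80.5, 76.8 and 77.0 CPM in POGK cells, against 128.2, 127.8 and 122.6 CPM in control cells. It was lower like MYC, at a log2 fold change of -0.69 (edgeR adjusted p 2.78e-05), and its control libraries were far more even than those of MYC. CASC19 had 532.6, 579.6 and 572.6 CPM in POGK cells, against 103.5, 306.9 and 126.0 CPM in control cells. It was 3.14-fold higher (edgeR adjusted p 0.00389), and control replicate 2 stood well above the other control libraries. CASC8 was 1.51-fold higher. CASC11, which overlaps MYC on the opposite strand, was at 0.538 and 0.556 CPM in POGK and control cells and did not pass (edgeR adjusted p 0.845), and PCAT1 and POU5F1B were too low to be tested.

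**Figure D4:**
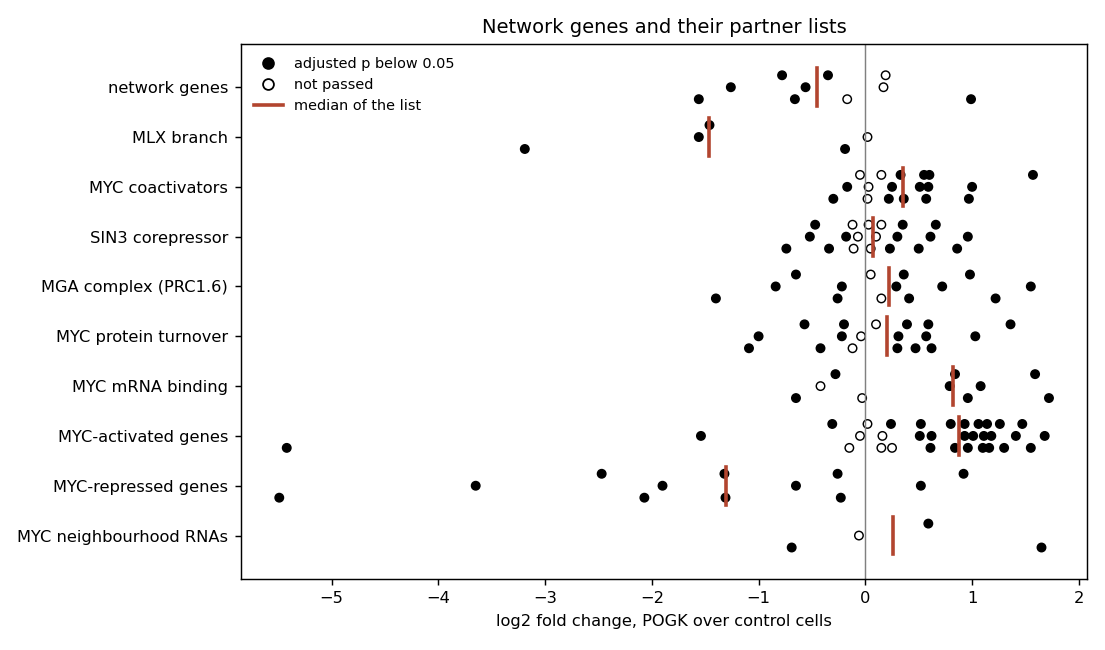
Log2 fold change of POGK over control cells for each tested network gene and each tested gene of the 9 partner lists, filled where the edgeR adjusted p was below 0.05, with a line at the median of each list. The network genes have a median of -0.45, the genes known to be raised by MYC 0.88 and those known to be lowered by it -1.31.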

How the data were processed

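The authors deposited raw read counts per Ensembl gene for 6 libraries; STAR, featureCounts, Trimmomatic, SAMtools and deepTools are named in the submitters' processing notes, and the labels name hg38. RNA was ribosome-depleted total RNA, per the labels' protocols. The deposited table also holds, per the file headers, a signal (counts over a size factor, from its values), log2 fold changes, a test score and p-values, used only in sentences that name that table. The lowest total of a gene over the 6 libraries was 21 counts.

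Counts were tested with edgeR 4.0.16 in R 4.3.3 (quasi-likelihood, robust, TMM, default low-count filter, group as the term, Benjamini-Hochberg over 15889 genes). SEs come from the F statistic. Lengths and coordinates are from GENCODE 44; 18264 genes matched. Alternatives were DESeq2 1.42.0, limma-voom 3.58.1, other scalings and filters, a fit of protein-coding genes alone, a replicate block, and leaving out each library in turn. Pairs of libraries differed by a chi-square per gene of 1.36 to 2.62 in POGK and 22.5 to 49.7 in control cells, more than counting error, and were kept apart.

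The members and lists were chosen with earlier results of these data known. The text names all members, the 4 genes of each list with the smallest adjusted p (all genes of a list of at most 5), and the 5 genes nearest to MYC and to the member with the largest change; others are marked, and 3 that the rule names or that a count would call for are not reported here.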

Additional observations from a re-analysis of the deposited data

How the results depend on the processing

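Over 14 alternative settings, 193 of 208 values for POGK, the members and the counts of called genes stayed on their side of the threshold or, for a count, within 1.5 times the reported one. None reversed a called value; MNT, which did not pass, turned to 0.02 with library size alone. MYC, MXD1, MXI1, MXD3 and MXD4 were lower in all 14. The number of members higher, 1 in the reported fit (MYCN), was 2 with library size alone (MYCN and MGA), 0 with at least 1 CPM in 3 libraries, which leaves MYCN untested, and 0 with DESeq2; with 1 library left out it lay between 0 and 1. The number lower lay between 5, with library size alone, and 7, without control replicate 2. Of the counts for the 9 lists, 231 of 252 stayed within 1.5 times. With the replicate block, 1 member was higher and 6 were lower, as without it, and MYC had a log2 fold change of -0.55 (edgeR adjusted p 4.95e-04). Same-numbered libraries deviated together only weakly (r 0.08, 0.05 and 0.01 across genes, for numbers 1, 2 and 3). Since the POGK libraries varied little among themselves, this cannot tell whether same-numbered libraries were prepared together. The low counts of MYCN and MYCL, at most 40 per library, limit what can be said of them.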

Other observations

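Other factors that bind E-boxes, a list chosen after the values of the network genes were known, were lower in 9 of 12 cases and higher in 1, against 33.3% and 32.7% of all genes tested, with a median log2 fold change of -0.51 (-0.32 with library size alone). BHLHE40 and BHLHE41, repressors of the circadian clock, fell to 104.3 ± 1.45 and 11.8 ± 0.631 CPM in POGK cells, against 270.5 ± 67.5 and 46.2 ± 10.6 CPM in control cells (SD, n = 3 each). SREBF2, the master factor of cholesterol synthesis, and MITF, of the lysosomal and pigment cell factor family, had log2 fold changes of -0.53 and -0.62 at edgeR adjusted p-values of 2.24e-04 and 2.94e-04. The gene that was higher was CLOCK, 1.70-fold, named after its values were seen.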
